A study of Mus musculus with 19 samples.

Results

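Receptor chains for the cytokines that sustain T cells without antigen were followed in arrays of OT-I cells, CD8 T cells whose transgenic receptor recognises 1 ovalbumin peptide. The members were Il7r, Il2rb, Il2rg and Il4ra, and every probe set whose symbol in the platform's gene annotation was 1 of these names was taken. The rule gave 4 of 12422 probe sets for 3 genes: 1 for Il7r, 1 for Il2rb and 2 for Il4ra. No probe set listed carried the symbol Il2rg, and that chain was not analysed here.

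Per the labels, OT-I cells had been transferred into B6 mice and were sorted later from lymph node and spleen. The reference came from unirradiated hosts sorted at day 6 (n = 4). The other groups came from irradiated hosts and were titled day 5 (n = 8), day 40 (n = 4) and day 115 (n = 3). The samples titled day 5 are described as sorted at day 6, and 2 of their descriptions do not name the cells. No unirradiated group was sorted at day 40 or day 115, so at those times the host and the time since transfer cannot be told apart. The sources used here give neither sex, nor age, nor separate animals, so p-values measure only the spread between samples.

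Il7r encodes the alpha chain that binds IL-7, Il2rb the beta chain shared by the IL-2 and IL-15 receptors, and Il4ra the alpha chain that binds IL-4. Each pairs with the common gamma chain, the product of Il2rg, and signals through the kinases Jak1 and Jak3, mainly to STAT5 from the IL-7 and IL-15 receptors and to STAT6 from the IL-4 receptor. IL-7 maintains naive and memory CD8 T cells, IL-15 maintains memory CD8 T cells, and Il7r is low on recently activated effector cells.

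The promoter of Il4ra, the member with the largest rise below, and a stretch near the start of Il7r, the member that was low at day 5 and high at day 40, are shown as RefSeq gives them on GRCm38.p6, 5′ to 3′. Il7r lies at chr15:9506159-9529941, Il2rb at chr15:78479256-78511621 and Il4ra at chr7:125552271-125579474. The Il4ra sequence covers the 250 bases before the annotated start (chr7:125552021-125552270, plus strand), with matches to ATGNAAAT in capitals. The table of promoters takes position 9529876 as the start of Il7r, inside the annotated gene, and its distances count from there. The Il7r sequence covers 28 bases (chr15:9529909-9529936, minus strand), which also lie inside the annotated gene, with the match to GGAAGT, read on the other strand, in capitals.
Il4ra: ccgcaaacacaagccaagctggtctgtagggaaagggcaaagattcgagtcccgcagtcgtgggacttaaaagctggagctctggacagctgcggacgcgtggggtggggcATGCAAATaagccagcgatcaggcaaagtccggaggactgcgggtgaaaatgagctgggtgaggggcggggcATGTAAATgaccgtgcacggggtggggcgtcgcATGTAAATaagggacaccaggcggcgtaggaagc
Il7r: cttttgctcagACTTCCtgtttctggca

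ATGNAAAT, a pattern that holds the octamer of immunoglobulin promoters, was chosen after the Il4ra sequence had been read. It matched 3 times there, from 139, 67 and 34 bases before the start, and 5.03% of 32851 RefSeq promoter windows of 250 bases held at least 1 match on either strand. GGAAGT, the core bound by Ets-family factors, matched once in the Il7r window, from 49 bases before the table's start, and 19.7% of windows held it. TTCNNNGAA, the STAT5 pattern, matched once in the Il7r window, from 142 bases before the table's start, and 7.02% of windows held it. The STAT6 pattern, whose TTC and GAA arms stand 4 bases apart (5.85% of windows), and GTAAACA, the FOXO pattern (3.17%), matched neither window. Matches describe letters only. The table of promoters matched Il7r, Il4ra and Il2rg, and not Il2rb.

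Signals are linear intensities as deposited, and array medians lay between 49.6 and 53.7. Correlations over all probe sets put the arrays into 2 clusters that do not follow the groups. All 3 day-115 arrays fell in array cluster 1, with arrays 1 to 3 of day 5 and arrays 1 and 2 of day 40. All 4 unirradiated arrays fell in array cluster 2, with the rest of days 5 and 40. No label names a batch. The differences of the members are therefore also given after the cluster was added to the model (the cluster term) or inside 1 cluster, and day 115 and unirradiated hosts share no cluster. Cd8a, the co-receptor of the sorted cells, ranged from 1851 to 3906 over all arrays, and Cd3e, which encodes a CD3 chain, from 180 to 291. Of 8 tested CD8 T cell markers, 1 rose at day 115 against unirradiated hosts, where 15.1% of all tested probe sets rose. It was Cd2, by 1.33 (limma, adjusted p = 0.00248), or by 0.70 with the cluster term (adjusted p = 0.0619). Against day 5, Cd8b1 differed at day 115 by -0.21 (adjusted p = 0.631), or by -0.73 with the cluster term (adjusted p = 0.0172). Of 9 myeloid and dendritic markers, 4 lay under the filter, among them Lyz2, and 1 of the 5 tested, Itgax, rose at day 115 against unirradiated hosts, by 0.60 (limma, adjusted p = 0.00954), or by 0.24 with the cluster term (adjusted p = 0.295).

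Il7r was bright, at the 98.7th percentile of mean signal over probe sets. The 4 unirradiated arrays read 1589, 1511, 1632 and 2369. The 8 day-5 arrays ran from 561 through a median of 754 to 1020, and every one lay under every unirradiated array. The 4 day-40 arrays read 1344, 2160, 2435 and 3022, above all day-5 arrays and on both sides of the unirradiated ones. The 3 day-115 arrays read 1772, 759 and 1452, the second within the day-5 range and the others above it. In bulk samples, fewer cells carrying a transcript and less transcript per cell cannot be told apart.

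Mean Il7r signal was highest on day-40 arrays with 2240 ± 697 (SD, n = 4), followed by unirradiated arrays with 1775 ± 399 (n = 4), day-115 arrays with 1328 ± 518 (n = 3) and day-5 arrays with 787 ± 189 (n = 8). No neighbours in this order differed past the threshold, an adjusted p under 0.05 over all 8695 tested probe sets. Day 5 against unirradiated hosts gave a log2 difference of -1.17 ± 0.25 (SE; limma, adjusted p = 0.0346), and the ratio of means was 0.444. Only 0.242% of tested probe sets had a larger fall. Within array cluster 2, where both groups have arrays, the difference was -1.03 (adjusted p = 0.0168), so the difference was of like size without the day-5 arrays of the other cluster. The call ended when day-5 array 1, 2, 3, 5 or 6 or any 1 of the unirradiated arrays was left out, with adjusted p up to 0.186 and differences from -1.24 to -1.02. Without both day-5 arrays whose descriptions do not name the cells, the difference was -1.06 (adjusted p = 0.094).

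Day 40 stood above day 5 by 1.47 ± 0.25 on the log2 scale (adjusted p = 0.0054), with a ratio of means of 2.85. Only 0.0805% of tested probe sets rose more. It was 1.66 within array cluster 2 (adjusted p = 0.00362) and 1.37 within array cluster 1, where 3 arrays met 2 (adjusted p = 0.344). The 2 within-cluster values did not differ past the threshold (difference -0.29 ± 0.43, adjusted p = 0.965). The call of Il7r held without any 1 array of either group, with adjusted p up to 0.0495. Against unirradiated hosts, day 40 differed by 0.30 (95% interval -0.30 to 0.90, adjusted p = 0.628), and by 0.54 with the cluster term (adjusted p = 0.393) and 0.63 within array cluster 2 (adjusted p = 0.214).

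At day 115, the direction of Il7r against unirradiated hosts was not settled. Against unirradiated hosts the difference was -0.48 (95% interval -1.12 to 0.17, adjusted p = 0.256) on groups alone and 0.000259 with the cluster term. Against day 5 it was 0.69 ± 0.27 (adjusted p = 0.0927), 0.99 with the cluster term (adjusted p = 0.0199) and 1.05 without day-115 array 2 (adjusted p = 0.0358). Against day 40 it was -0.77 (95% interval -1.42 to -0.13, adjusted p = 0.313), or -0.54 with the cluster term (adjusted p = 0.451).

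**Figure D1:**
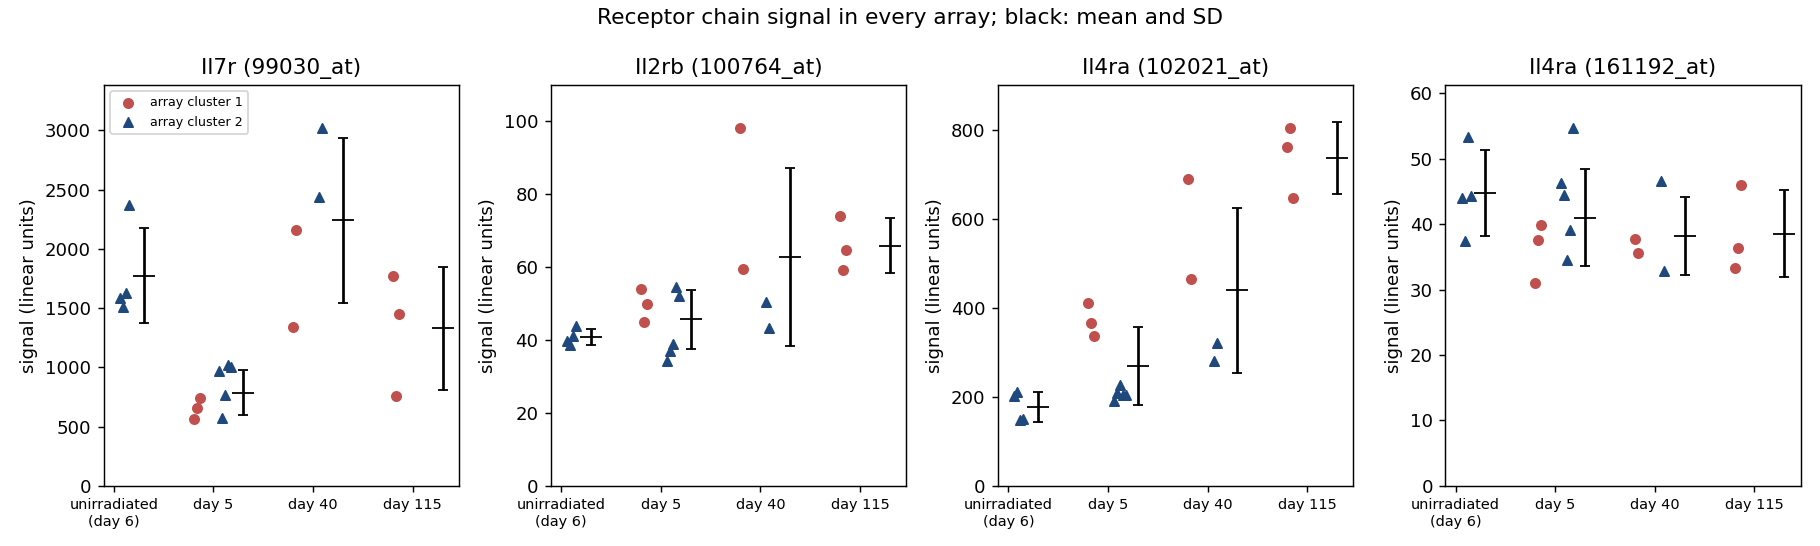
Linear signal (y axes, from 0) of the 4 member probe sets in each of the 19 arrays by group (x axes), with circles for array cluster 1, triangles for array cluster 2, and black marks for the group mean and SD. All day-5 arrays of Il7r lie under all unirradiated arrays, the brighter Il4ra probe set is higher in circles than in triangles at day 5 and day 40, and the dimmer Il4ra probe set overlaps in all groups.

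Il4ra rose over the course in its brighter probe set, which lay at the 91.2th percentile of mean signal. The unirradiated arrays read 202, 211, 147 and 149. The day-5 arrays ran from 190.7 through a median of 218 to 411. Within that group, the 3 arrays of cluster 1 read 336 to 411 and the 5 of cluster 2 read 190.7 to 227. The day-40 arrays read 689.8 and 465 in cluster 1 and 280.2 and 321 in cluster 2. The day-115 arrays read 760.3, 804 and 646, and 2 of them lay above every other array of the study.

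Mean Il4ra signal climbed from 177 ± 33.9 on unirradiated arrays (SD, n = 4) through 268 ± 87.9 on day-5 arrays (n = 8) and 439 ± 185 on day-40 arrays (n = 4) to 737 ± 81.6 on day-115 arrays (n = 3). Neighbours in this order did not differ past the threshold (adjusted p = 0.351, 0.213 and 0.299). Groups 2 or 3 steps apart did. Day 115 exceeded unirradiated hosts by 1.97 ± 0.30 (limma, adjusted p = 0.00046), a ratio of means of 4.15, and by 1.15 with the cluster term (adjusted p = 0.00231). Every day-115 array lay above every unirradiated array, and 0.391% of tested probe sets rose more. This call passed in all 18 alternatives run, with differences from 1.15 to 2.11. They included an exact permutation test, whose p-value was not adjusted.

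Day 40 exceeded unirradiated hosts in Il4ra by 1.17 ± 0.27 (adjusted p = 0.0381), a ratio of means of 2.47, with no overlap between groups. It was 0.75 with the cluster term (adjusted p = 0.00898) and 0.72 within array cluster 2 (adjusted p = 0.0232). On groups alone the call ended without any 1 unirradiated array or day-40 array 1 or 2, with adjusted p up to 0.143. Day 115 exceeded day 5 by 1.45 ± 0.26 (adjusted p = 0.00209), again with no overlap, and by 0.96 within array cluster 1 (adjusted p = 0.0509). Day 5 differed from unirradiated hosts by 0.52 (95% interval 0.02 to 1.02) on groups alone and by 0.22 within array cluster 2 (adjusted p = 0.406).

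Il4ra also differed between the array clusters within a group. Among day-5 arrays, cluster 1 was higher by 0.79 ± 0.15 (adjusted p = 0.000316), and among day-40 arrays by 0.88 ± 0.20 (adjusted p = 0.00486). Of 8695 probe sets, 4090 differed between the clusters at day 5 and 1816 at day 40. The clusters were formed from the values of these same arrays. The p-values between clusters here are therefore no independent test of a difference, and only describe its size. The step from day 5 to day 40 was 0.60 in cluster 1 and 0.50 in cluster 2, and these did not differ past the threshold (difference 0.09 ± 0.25, adjusted p = 0.992). Il2rb was also higher in cluster 1 at day 40, by 0.57 ± 0.17 (adjusted p = 0.0263), and at day 5 the difference was 0.16 (adjusted p = 0.314). For Il7r the clusters differed by -0.37 ± 0.25 at day 5 (adjusted p = 0.233) and by -0.67 ± 0.35 at day 40 (adjusted p = 0.191).

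The second, dimmer Il4ra probe set did not share the rise. Its mean was 44.7 ± 6.55 on unirradiated arrays (n = 4), 41.0 ± 7.42 on day-5 arrays (n = 8), 38.2 ± 5.99 on day-40 arrays (n = 4) and 38.6 ± 6.65 on day-115 arrays (n = 3). Its arrays overlapped in all 6 comparisons, and day 115 differed from unirradiated hosts by -0.16 (95% interval -0.42 to 0.11, limma, adjusted p = 0.367). At the 42.6th percentile of mean signal, it lay near the filter level of 26.1. The probe sets of Il4ra therefore disagree, and the rise rests on the brighter one.

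B cells also carry the IL-4 receptor, and some of the transcripts listed as markers of B or plasma cells rose at day 115. The summed signal of 9 B cell markers with a probe set (of 10 listed) ran from 681 to 842 in unirradiated hosts, 703 to 1375 at day 5, 914 to 1663 at day 40 and 1190 to 2362 at day 115. None of the 9 lay under the filter. At day 115 against unirradiated hosts, 3 of the 9 rose and none fell by limma, where 15.1% of all tested probe sets rose. The 3 were H2-Aa, H2-Ab1 and Cd74. Cd79a, Cd79b, Ms4a1, Cd22, Blnk and Pax5 were not called, with adjusted p from 0.0541 to 0.413. None of the 9 was called with the cluster term. Cd79a, a chain of the B cell receptor complex, stood at 136 ± 11.3 in unirradiated hosts (n = 4) and 156 ± 10.7 at day 115 (n = 3), and H2-Aa, which encodes an MHC class II chain, at 90.0 ± 49.4 and 431 ± 308. The 4 plasma cell markers with a probe set (of 6) summed to 550 to 647 in unirradiated hosts, 744 to 1688 at day 5, 901 to 1875 at day 40 and 1738 to 2369 at day 115. Of 3 tested, 2 rose at day 115, Jchain and Ighm. Both were also called with the cluster term, where 4.42% of all tested probe sets were called in either direction. Xbp1, the other tested marker, differed by -0.315 (limma, adjusted p = 0.27). Most of the plasma cell sum is Ighm, with means of 500 in unirradiated hosts and 1944 at day 115. Prdm1 lay under the filter. The 2 erythroid markers with a probe set (of 5) summed to 154 to 236 in unirradiated hosts, 182 to 2412 at day 5, 303 to 920 at day 40 and 402 to 1199 at day 115. The part of these cells in the Il4ra rise was not tested.

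Il2rb was dim, at the 48.8th percentile of mean signal. The unirradiated arrays read 39.6, 38.6, 41.0 and 43.9, and the day-5 arrays ran from 34.2 through 47.4 to 54.5. The day-40 arrays read 98.1, 59.3, 50.3 and 43.2, with the first far above the rest. The day-115 arrays read 73.9, 59.0 and 64.6, all above every unirradiated and every day-5 array. At such levels, the added pseudocount of 16 makes log2 differences smaller.

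Mean Il2rb signal was 40.8 ± 2.29 on unirradiated arrays (SD, n = 4), 45.6 ± 8.15 on day-5 arrays (n = 8), 62.7 ± 24.5 on day-40 arrays (n = 4) and 65.8 ± 7.49 on day-115 arrays (n = 3), and no neighbours in this order differed past the threshold. Day 115 exceeded unirradiated hosts by 0.52 ± 0.17 (limma, adjusted p = 0.0279), with a ratio of means of 1.61. With the cluster term the difference was 0.23 (adjusted p = 0.471). The call also ended when unirradiated array 1, 2 or 3 or day-115 array 1 or 3 was left out, with adjusted p up to 0.0964. Day 115 against day 5 gave 0.42 (95% interval 0.10 to 0.73, adjusted p = 0.0673), or 0.23 with the cluster term (adjusted p = 0.284). Day 40 against unirradiated hosts gave 0.43 (95% interval 0.10 to 0.75, adjusted p = 0.194). Within array cluster 2, day 40 differed from unirradiated hosts by 0.14 (adjusted p = 0.679), and the difference on groups alone was 0.23 without day-40 array 1.

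NK cells carry Il2rb at high levels. The 5 NK markers with a probe set (of 8) summed to 910 to 1555 in unirradiated hosts and 684 to 854 at day 115, and Ncr1, the NK receptor gene, lay under the filter. Most of that sum is Klrd1, an NK receptor gene that CD8 T cells also express, which fell from 1089 ± 299 (n = 4) to 583 ± 93.3 (n = 3; limma, adjusted p = 0.0269). Of the 4 tested markers, the receptor genes Klrk1 and Klrc1 rose at day 115, by 0.44 (adjusted p = 0.00702) and 0.36 (adjusted p = 0.0114), and the median difference over the 4 was 0.30. None of the 4 was called with the cluster term. The part of NK cells in the Il2rb difference was not tested.

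**Figure D2:**
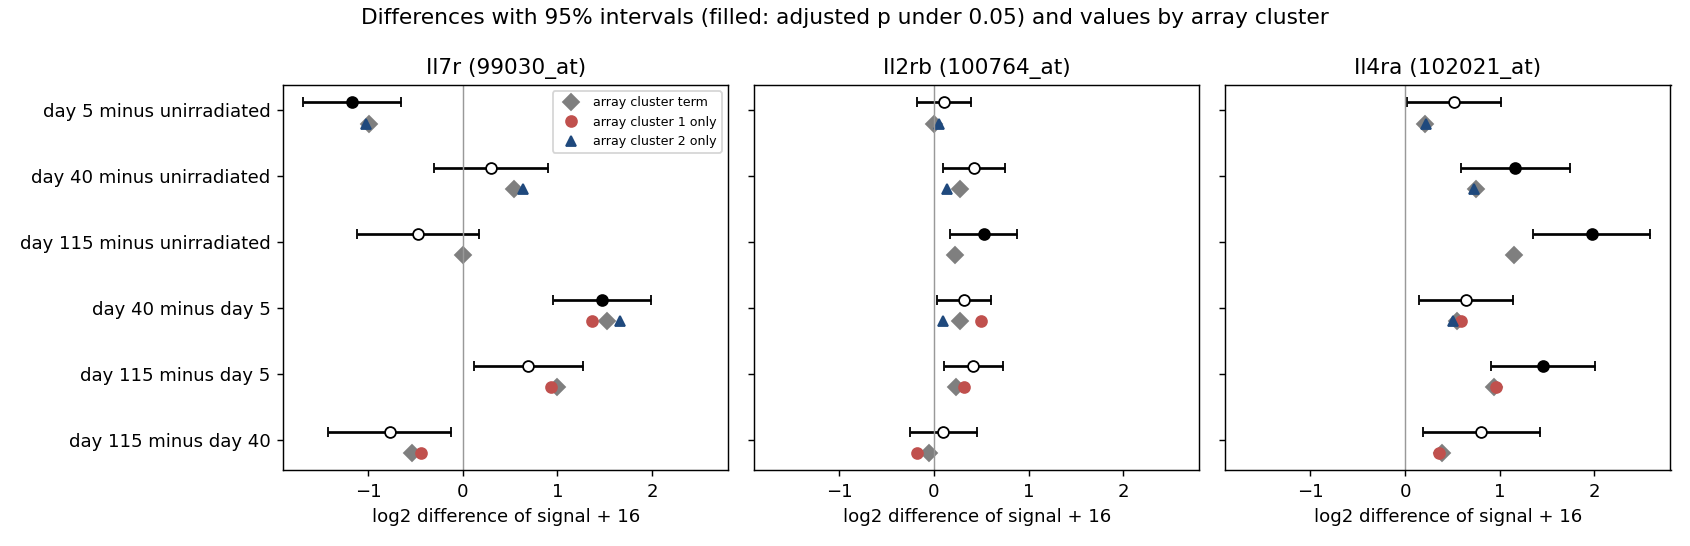
Log2 differences of signal + 16 (x axis) in the 6 comparisons (y axis) for Il7r, Il2rb and the brighter Il4ra probe set, with 95% intervals in black and filled where adjusted p was under 0.05. Diamonds give the value with the cluster term, red circles that within array cluster 1 and blue triangles that within array cluster 2; Il7r at day 5 and Il4ra at day 40 and day 115 stay away from 0 in each value shown.

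Counted over the 4 member probe sets, limma called 1 at day 5 against unirradiated hosts, where it called 0.794% of all tested probe sets. It called 1 at day 40, with a background of 1.48%, and 2 at day 115, with a background of 27.9%. These 3 comparisons share the unirradiated arrays. Between irradiated groups it called 1 at day 40 against day 5 (background 1.27%) and 1 at day 115 against day 5 (background 13.8%). It called none at day 115 against day 40 (background 0.092%), where 2 of the 4 had an unadjusted p under 0.05 and none an exact permutation p under 0.05. The share of all tested probe sets with an unadjusted p under 0.05 is not given here, so that count has no background.

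Within array clusters the chains were only loosely alike. After each array cluster's mean was subtracted, the correlation over the 19 arrays was 0.34 between Il7r and Il4ra, 0.42 between Il7r and Il2rb and 0.54 between Il2rb and Il4ra. These values describe arrays that share groups and processing, and were not tested.

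The genes with patterns most opposed to Il7r over the 19 arrays, measured the same way, were Cmc2 (r = -0.91), a gene of cytochrome oxidase assembly, the mitotic kinase gene Plk1 (r = -0.88) and the apoptosis gene Siva1 (r = -0.88). Plk1 averaged 46.2 ± 6.39 on day-5 arrays (n = 8), against 31.3 ± 2.95 on unirradiated arrays (n = 4), 29.8 ± 4.32 on day-40 arrays (n = 4) and 30.1 ± 6.01 on day-115 arrays (n = 3). So Plk1 was highest where Il7r was lowest. The most alike were Usp8, a deubiquitinase gene (r = 0.90), Fam13b (0.87), Oga, the enzyme that removes O-GlcNAc (0.86), the ubiquitin ligase gene Ube3a (0.86) and the growth kinase gene Mtor (0.85). Mtor read 85.1 ± 5.92 at day 5 and 129 ± 18.6 at day 40. Centred on the overall mean in place of the cluster means, the 3 opposed genes kept r from -0.86 to -0.83, while the 5 alike fell to between 0.56 and 0.72.

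The genes most like Il4ra were the phosphatase gene Ppm1m (r = 0.94), the cathepsin genes Ctse (0.94) and Ctsd (0.92), Txndc5, a disulfide isomerase of the endoplasmic reticulum (0.92), and Bms1, a ribosome assembly gene (0.92). Mean Ctsd signal followed the same order of groups, with 340 ± 40.1 on unirradiated arrays (n = 4), 597 ± 184 on day-5 arrays (n = 8), 909 ± 458 on day-40 arrays (n = 4) and 1503 ± 413 on day-115 arrays (n = 3). The most opposed were the transferrin receptor gene Tfrc (r = -0.89), the glycine transporter gene Slc6a9 (-0.88) and the ribosomal protein gene Rpl22 (-0.88). Centred on the overall mean, the 5 alike lay between 0.95 and 0.98, Tfrc and Rpl22 at -0.85 and -0.82, and Slc6a9 at -0.30, so the order of the opposed genes depended on the centring, that of Slc6a9 the most. The correlation of Il4ra was 0.68 with the summed plasma cell markers, 0.37 with the B cell markers and -0.32 with the CD8 markers. With the myeloid and dendritic markers it was -0.54. Il7r gave 0.054, 0.48 and -0.42 with the plasma cell, B cell and CD8 markers, so the B cell and CD8 values were not particular to Il4ra. Il2rb gave 0.066, 0.08 and 0.01 with the same sums, and -0.26 with the NK markers.

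Il2rb was most like Atf3, a stress-response factor (r = 0.86), Pdcd7 (0.82), Erdr1 (0.80), Pdxdc1 (0.79) and Gtf3c4 (0.79), and most opposed to the palmitoyltransferase gene Zdhhc5 (-0.82), the ATP receptor gene P2rx7 (-0.80) and Dda1 (-0.79). Centred on the overall mean, the 3 opposed spread from -0.90 to -0.18 and the 5 alike from 0.093 to 0.92, so this order depended on the centring.

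**Figure D3:**
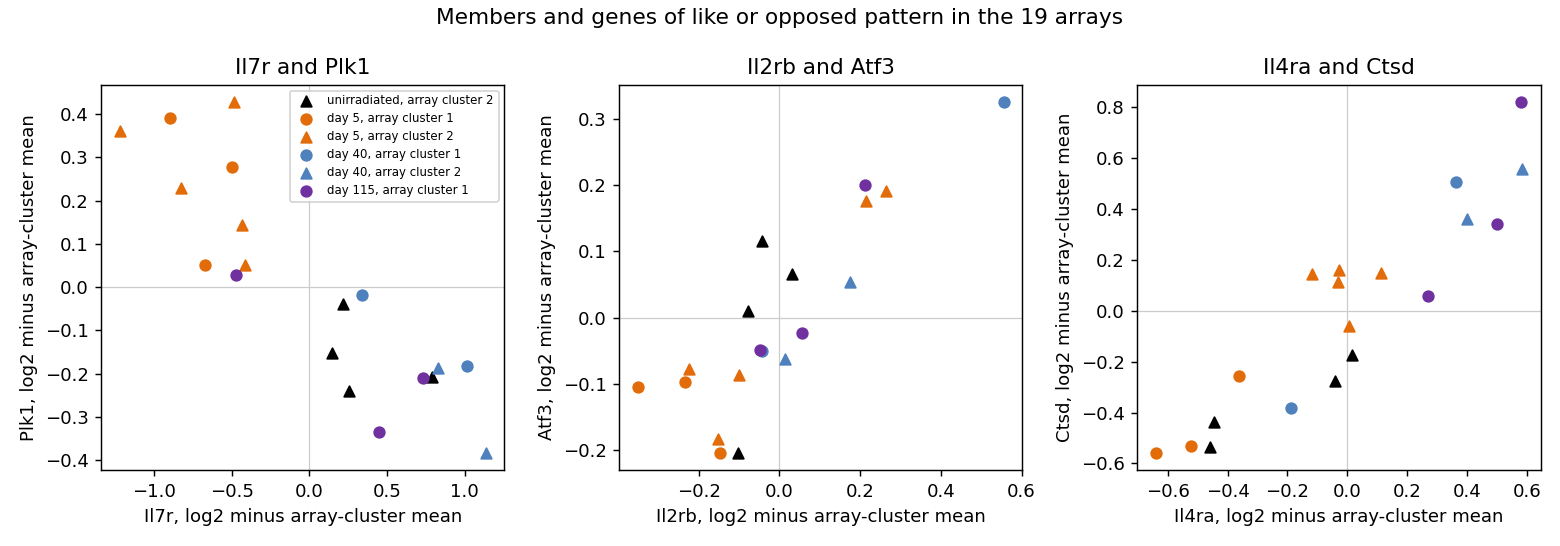
Log2 signal minus the mean of the array's cluster in the 19 arrays, for Il7r against Plk1, Il2rb against Atf3 and Il4ra against Ctsd, with colour for the group and symbol for the array cluster. Day-5 arrays sit at low Il7r and high Plk1, and Ctsd climbs with Il4ra; the Il2rb panel is stretched by 1 day-40 array at the upper right.

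Of 90 other genes of the receptors' pathway, listed by role, 60 were tested. Against unirradiated hosts, limma called none of these 60 at day 5, and 1 passed with the cluster term, where 1.59% of all tested probe sets were called. At day 5, 15 of the 60 had an unadjusted p under 0.05, a count for which no share over all probe sets is given. On groups alone, limma called 3 risen and 1 fallen at day 40, where 1.15% of all tested probe sets rose and 0.334% fell. It called 16 risen and 6 fallen at day 115, where 15.1% rose and 12.8% fell, and that count is read against this background. With the cluster term 5 of the 60 rose and 2 fell at day 115, while calls over all probe sets went from 27.9% to 4.42%. The counts by role below stand against the same shares, and none is called particular to its list.

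Among partner chains, 2 of 7 were tested. Il15ra, the chain that presents IL-15, rose at day 115 from 76.9 ± 7.16 (n = 4) to 117 ± 23.6 (n = 3), by 0.51 ± 0.16 (limma, adjusted p = 0.0282), but by 0.20 with the cluster term (adjusted p = 0.494). Il9r, the IL-9 receptor chain, fell at day 115 by 0.46 on the log2 scale (adjusted p = 0.00377), or by 0.37 with the cluster term (adjusted p = 0.0753), to 28.5 ± 4.28 (n = 3), near the filter level. Both were named after their values had been seen. Of 8 ligand genes, 2 were tested and neither was called.

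Of 8 tested kinases and STATs, 1 rose at day 115. Jak3, the kinase bound by the common gamma chain, went from 110.1 ± 1.70 (n = 4) to 384 ± 174 (n = 3), by 1.58 ± 0.37 (limma, adjusted p = 0.00613), and by 0.62 with the cluster term (adjusted p = 0.194). Jak1 and Stat5b had adjusted p = 0.188 and 0.562 there, with differences of -0.38 and 0.10. Stat5a and Stat6 differed there by 0.50 (adjusted p = 0.0931) and -0.24 (adjusted p = 0.401). Against day 5, Stat5a rose at day 115 by 0.62 (adjusted p = 0.0401), or by 0.29 with the cluster term (adjusted p = 0.171). Jak2 rose against day 5 with that term only, by 0.64 at day 40 and 0.60 at day 115 (adjusted p = 0.00112 and 0.00572).

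Among 9 tested feedback inhibitors, 2 rose and 1 fell at day 115. With the cluster term 1 rose, Socs2, named after its value had been seen, by 0.51 (adjusted p = 0.0362). Ptprc, the CD45 phosphatase, changed by -1.43 ± 0.36 (limma, adjusted p = 0.00878) and by -0.56 with the cluster term (adjusted p = 0.257). A dimmer Ptprc probe set went the other way, with 1.82 at day 115 (adjusted p = 0.00204), so the Ptprc value holds for 1 probe set only. The inhibitor gene Socs1 rose by 0.94 ± 0.28 (adjusted p = 0.0194), or 0.18 with the term (adjusted p = 0.602).

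Of 10 survival and growth targets, 4 rose and 1 fell at day 115, and 1 rose with the cluster term. Ccnd2, a D-type cyclin, went from 1400 ± 134 (n = 4) to 228 ± 40.4 (n = 3), by -2.55 ± 0.68 (limma, adjusted p = 0.0121), but by -0.37 with the cluster term (adjusted p = 0.349). Bcl2, the survival factor that IL-7 sustains, differed by -0.08 at day 115 (adjusted p = 0.921) and by 1.18 with the cluster term (adjusted p = 0.0504). At day 40 against unirradiated hosts, Bcl2 differed by 0.48 (adjusted p = 0.6), and by 1.11 with the cluster term (adjusted p = 0.0288). With that term 2 of the 10 rose at day 40, where 2.22% of all tested probe sets were called. Bcl2l11, which encodes the death factor Bim, rose from day 5 to day 40 by 0.73 ± 0.13 (adjusted p = 0.00947), in the comparison in which Il7r rose too, and by the same 0.73 with the cluster term (adjusted p = 0.00194).

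Of 7 tested regulators of Il7r transcription, 1 fell at day 40 and 3 at day 115, and none rose. Runx1 fell at day 40 to 30.9 ± 2.17 (n = 4) from 58.0 ± 20.6 (n = 4), by 0.61 on the log2 scale (limma, adjusted p = 0.0383), or by 0.53 with the cluster term (adjusted p = 0.0681). Ets1, a factor of the Ets family, changed by -1.75 ± 0.43 at day 115 (adjusted p = 0.00837), or by -1.15 once the cluster was in the model (adjusted p = 0.174), but its dimmer probe set differed by 0.58. Gabpa, an Ets-family activator of Il7r, had -1.14 at day 115 (adjusted p = 0.0164) and -0.19 with the term (adjusted p = 0.586). With the cluster term none of the 7 was called in any of these comparisons. Of 3 tested regulators of Il2rb, none was called against unirradiated hosts on groups alone, and Id3, an inhibitor of E proteins, fell with the cluster term at day 115, by 0.77 (adjusted p = 0.041).

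Of 19 tested other cytokine receptor chains, 3 rose at day 40 and 8 at day 115, and none fell. With the cluster term, 3 rose at day 40, and 3 rose and 1 fell at day 115. Il18rap, which encodes the IL-18 receptor accessory chain, rose at day 115 by 1.48 ± 0.18 (limma, adjusted p = 4.36e-05) and by 1.16 with the cluster term (adjusted p = 0.00129). Ifnar2, an interferon receptor chain, rose at day 40 by 0.91 ± 0.22 (adjusted p = 0.0384), or 0.80 with the term (adjusted p = 0.0647). Ifnar1, its partner, rose at day 115 by 1.43 ± 0.42 (adjusted p = 0.0198), but by 0.21 with the term (adjusted p = 0.662). The median difference over the 19 was 0.15 at day 115, against 0.012 over all tested probe sets.

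**Figure D4:**
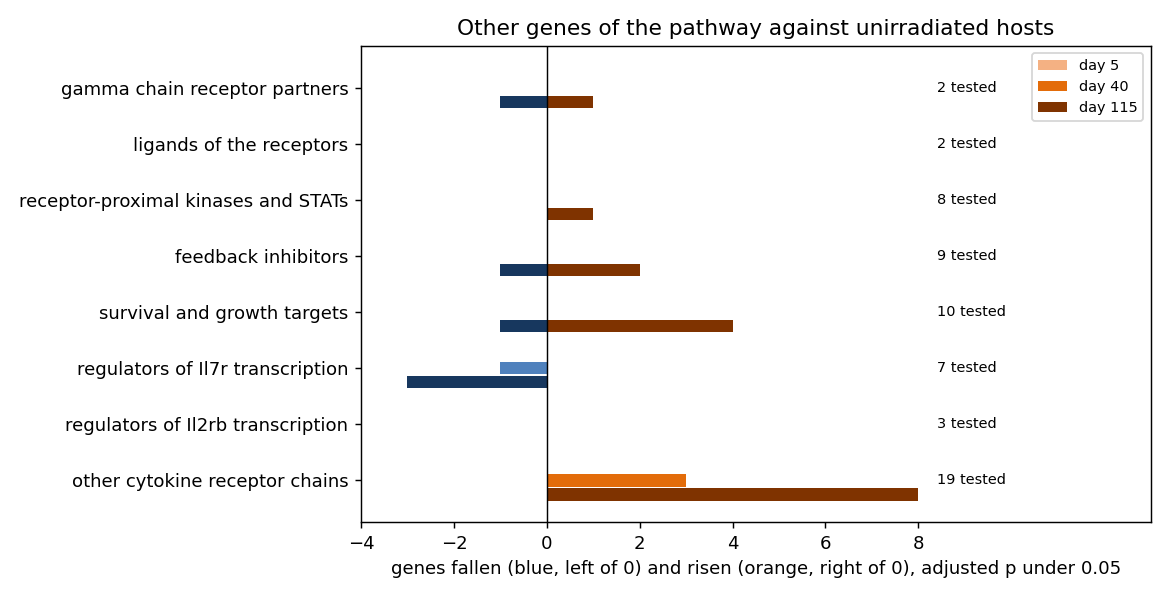
Number of genes (x axis) that rose (orange, right of 0) or fell (blue, left of 0) against unirradiated hosts in each pathway list (y axis) at adjusted p under 0.05, darker with later days, with the number tested at the right. The 8 rises of other cytokine receptor chains at day 115 form the longest bar, and no list has a call at day 5.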

How the data were processed

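The deposited table holds 1 linear signal intensity per probe set and array for 19 arrays. Their normalisation by the authors was not given in the sources used here. The 66 control probe sets were left out of 12488. Symbols came from the platform's annotation, with 10833 probe sets having 1 symbol, 396 several and 1193 not listed. Tests covered the 8695 probe sets with a mean log2(signal + 16) over its 30th percentile, which is a signal of 26.1. No further normalisation was applied. A single limma 3.58.1 model (R 4.3.3) held all 19 arrays, with group as the only factor and an intensity trend, and p-values were adjusted by Benjamini-Hochberg within each comparison across the 8695. The script was tested on simulated data. Average-linkage clustering on 1 minus Pearson correlation gave the 2 array clusters. Likeness is Pearson's r of cluster-centred log2 values, with the 5 most alike and 3 most opposed genes named per member. A gene of a list counts by its brightest tested probe set. Of the pathway lists, up to 6 called genes with the largest differences per comparison could be named. Il15ra, Il9r, Jak1, Jak2, Stat5a, Stat5b, Stat6, Socs1, Socs2, Bcl2, Gabpa, Id3 and the second probe sets of Ptprc and Ets1 were added after their values had been seen. Members, lists and rules were chosen with earlier results of these data known. Exact permutation tests were two-sided, and their p-values were not adjusted. Depth does not apply to arrays, and their number limits the precision.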

Additional observations from a re-analysis of the deposited data

Results flagged for a closer look

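In unirradiated hosts, array 4 had an Il7r signal of 2369.10, set apart from the other 3 (1511 to 1632) by a gap that was 0.859 of the group's range and above Dixon's 95% limit. Chance gives such a gap in about 1 of 20 groups, and 12 groups were examined. Without this array the difference of day 5 from unirradiated hosts was -1.02, with a limma adjusted p of 0.186.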

How the results depend on the processing

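Of the values for Il7r, Il2rb and the brighter Il4ra probe set under alternatives, 348 kept direction and side of the threshold, 26 lost the call, 11 gained one and 5 changed sign. Where direction or side was not kept, the cause was not tested. The exact permutation p-values were not adjusted, but were set against the same 0.05 in these counts, which makes a call easier there. With the cluster term, Il7r at day 115 against unirradiated hosts was 0.000259, Il7r at day 115 against day 5 was 0.990, Il2rb was -0.004 at day 5 and 0.225 at day 115 against unirradiated hosts and -0.051 at day 115 against day 40, and Il4ra at day 40 against day 5 was 0.546 (limma adjusted p = 0.011). Within array cluster 1, Il7r at day 40 against day 5 was 1.368, Il2rb at day 115 against day 40 was -0.184 and Il4ra at day 115 against day 5 was 0.958. Quantile normalisation gave 0.771 for Il7r at day 115 against day 5 (adjusted p = 0.049) and 1.186 for Il4ra at day 40 against unirradiated hosts (adjusted p = 0.0707), and a fit of only those 2 groups gave 1.166 (adjusted p = 0.0512). By exact permutation, p was 0.0364 for Il7r (0.693) and 0.0121 for Il2rb (0.416) at day 115 against day 5, 0.0384 for Il4ra at day 5 against unirradiated hosts (0.518) and 0.0465 for Il4ra at day 40 against day 5 (0.649). Without both day-5 arrays whose cells are not named, a choice made after seeing the data, Il7r at day 5 was -1.058 and Il2rb at day 115 against day 5 was 0.448 (adjusted p = 0.0469). The dimmer Il4ra probe set changed sign to 0.017 at day 40 against day 5 within array cluster 1, and at day 115 against day 5 to 0.035 with the cluster term, 0.061 within array cluster 1 and 0.002 with the replicate block.

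Leaving out 1 array at a time, Il7r ran from -1.237 to -1.022 at day 5 against unirradiated hosts and from 0.444 to 1.047 at day 115 against day 5. Il2rb ran from 0.455 to 0.585 at day 115 against unirradiated hosts, from 0.347 to 0.477 against day 5 and from -0.022 to 0.293 against day 40, below 0 without day-40 array 4. Il4ra ran from 0.927 to 1.344 at day 40 against unirradiated hosts, and its dimmer probe set from -0.155 to 0.012 at day 115 against day 5 and from -0.086 to 0.081 against day 40.

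Samples with the same replicate number had deviations correlated from -0.667 to 0.764 over 21 pairs (median 0.068). Samples with unlike numbers ran from -0.804 to 0.745 over 107 pairs (median -0.013). The numbers thus gave no sign of a pairing, but values spread this widely cannot exclude one. The replicate block gave 0.788 for Il4ra at day 5 against unirradiated hosts (adjusted p = 0.0156); day-5 arrays 5 to 8 have numbers that no other group has and add nothing to that fit. Over all 8695 probe sets, the replicate block took calls at day 5 against unirradiated hosts from 69 to 1707, and array cluster 1 alone took those at day 40 against day 5 from 110 to 1 and those at day 115 against day 5 from 1202 to 112. The cluster term took calls at day 115 against unirradiated hosts from 2424 to 384 and those at day 40 against day 5 from 110 to 646. Few arrays per group and low signals of Il2rb limit the precision.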
